A study of Bos taurus with 8 samples.

Results

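The transcripts described are those of 10 extracellular proteoglycans in cultured bovine granulosa cells: the small leucine-rich DCN, BGN, ASPN, LUM, FMOD, PRELP, OMD and OGN, the hyaluronan-binding VCAN, and HSPG2 of basement membranes. A probe set, the group of array probes that reads 1 transcript, was taken where its only gene symbol in the platform annotation was one of these names. The brightest probe set over the 8 arrays stood for its gene. All 10 genes were found among 18010 named genes, with a single probe set each except for OMD, which had 2.

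Primary granulosa cells, which line the ovarian follicle and nurse the oocyte, were grown without serum in alpha-MEM with FSH, IGF-1 and androstenedione in both groups. On day 2 and day 4 the medium was renewed and contained either bovine serum albumin (BSA) or a NEFA mix, that is, fatty acids that are not bound in esters, with 4 arrays for each group, and the culture ended on day 6. No source used here gives the make-up and dose of the mix, or says whether the replicates came from separate animals or cultures. Spread between the arrays of a group may thus be technical only, and so may be what the p-values measure. Array medians ran from 4.78 to 4.86 on the log2 scale, and no array stood apart in its correlation with the others (0.9914 to 0.9948 across all pairs and probe sets). Levels are deposited log2 values, given per array in the order of replicates 1, 2, 3 and 4, or as mean ± SD (n = 4 per group). Changes are NEFA minus BSA on the log2 scale with limma's standard error (SE). Levels of different probe sets were not set against each other, since probes differ in how well they bind their target.

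Small leucine-rich proteoglycans are secreted proteins with a curved core of leucine-rich repeats, and many carry chondroitin, dermatan or keratan sulfate chains. Several of them bind collagen fibrils and set their spacing, and some bind growth factors such as those of the TGF-beta family. Versican, the product of VCAN, binds hyaluronan, the long sugar polymer of the follicular and cumulus matrix, and perlecan, the product of HSPG2, carries heparan sulfate in basement membranes such as the one on which granulosa cells rest.

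With NEFA, 3 of the 10 transcripts rose: PRELP by 0.69 (1.61-fold), DCN by 0.53 (1.44-fold) and FMOD by 0.41 (1.33-fold). The other 7 did not pass limma's threshold (Benjamini-Hochberg adjusted p under 0.05 over all 24415 probe sets), and none fell. Over all genes, 2.35% passed in either direction and 0.999% passed as higher and 1.35% as lower. The mean was higher with NEFA for 9 of 10 members, where 50.9% of all genes were higher, and the median change of the 10 was 0.27 against 0.005 over all genes. The groups did not overlap, with every NEFA array above every BSA array, for 6 members (PRELP, DCN, FMOD, LUM, ASPN and OMD), against 5.19% of all genes in this direction and 12.4% in either. The members were chosen with earlier results of these data known, so these counts are not independent of the data. With each array centred on its median, the 3 calls remained the same, 8 of 10 members were higher, and VCAN turned from 0.02 to -0.01. In these bulk samples, fewer cells of a type and less RNA per cell cannot be told apart.

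**Figure D1:**
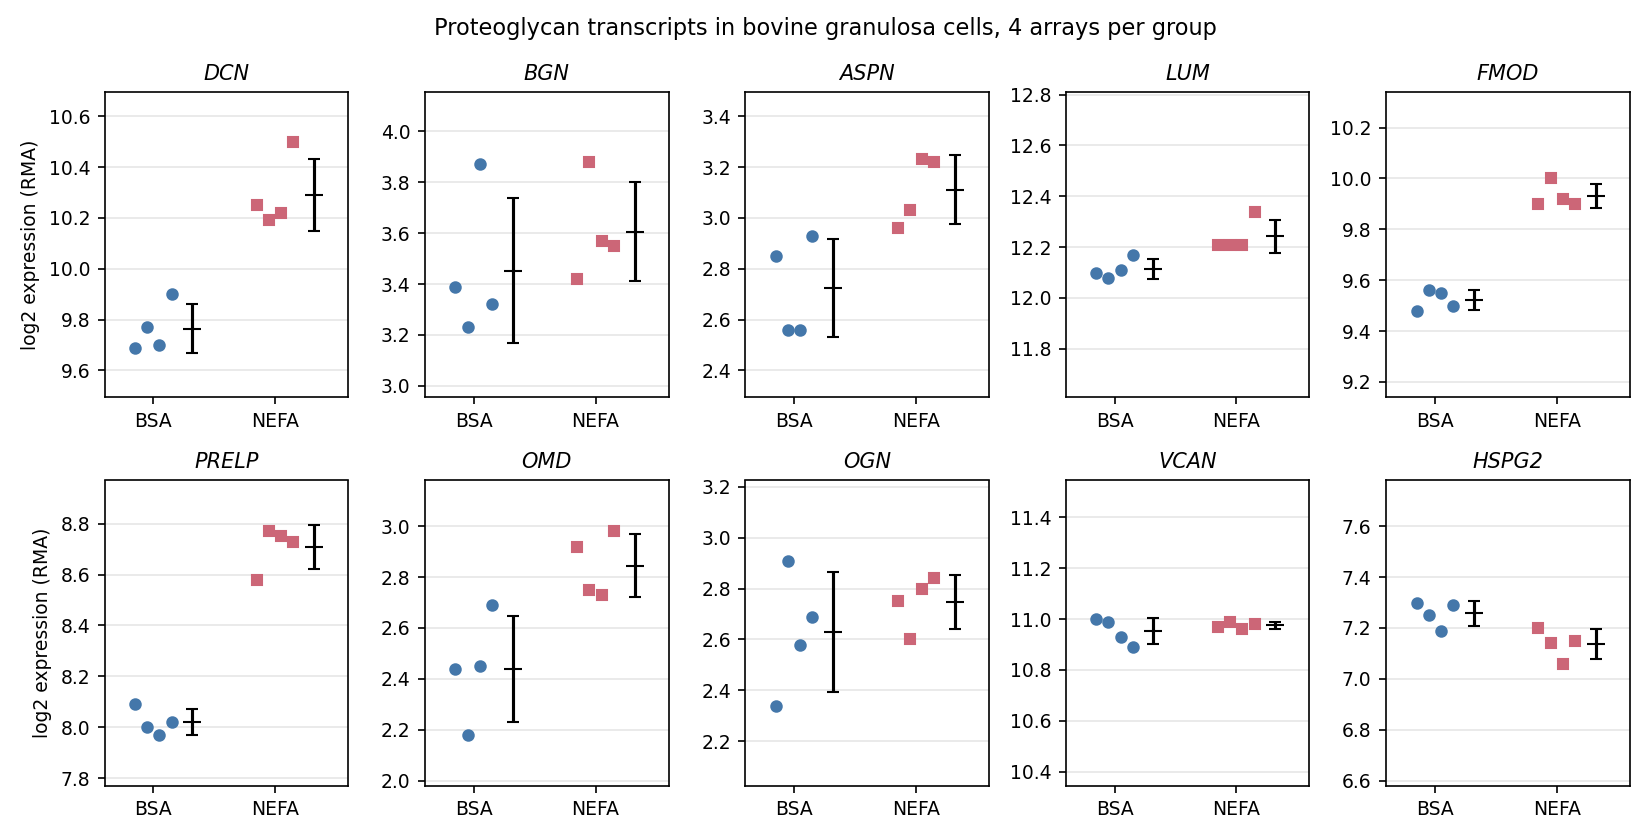
Log2 expression of the 10 transcripts on each array (circles BSA, squares NEFA, 4 arrays each; bar and whiskers, mean ± SD), with axes of the same span. PRELP, FMOD and DCN stood clear of the BSA arrays, while VCAN lay within 0.11 on all arrays and BGN and OGN overlapped.

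Among the members of class II, which can carry keratan sulfate, PRELP had the largest change. PRELP encodes prolargin, which binds collagen and, through a basic stretch, heparan sulfate chains. Its levels were 8.09, 8, 7.97 and 8.02 with BSA and 8.58, 8.77, 8.75 and 8.73 with NEFA. The lowest NEFA array thus stood above the highest BSA array by more than the range within either group. The change was 0.69 (SE 0.060; 95% interval 0.55 to 0.82; limma, adjusted p = 0.0014), and 0.572% of all genes had a larger absolute change.

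FMOD encodes fibromodulin, which binds collagen I and takes part in the maturation of its fibrils. It read 9.48, 9.56, 9.55 and 9.50 with BSA and 9.90, 10, 9.92 and 9.90 with NEFA. Both groups were tight, with a range of at most 0.10, and did not overlap. The change was 0.41 (SE 0.050; 95% interval 0.29 to 0.52; limma, adjusted p = 0.0062). PRELP and FMOD kept their calls whichever array was left out, with the highest adjusted p, 0.0088 and 0.028, when it was BSA 4.

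LUM encodes lumican, which shares the fibril-spacing role and is made by stromal cells of many tissues. It gave 12.10, 12.08, 12.11 and 12.17 with BSA and 12.21, 12.21, 12.21 and 12.34 with NEFA. The groups were next to each other without overlap, and NEFA 4 stood apart from the other NEFA arrays. The change of 0.13 did not pass (SE 0.053; 95% interval 0.01 to 0.25; limma, adjusted p = 0.29), except with trend and robust moderation of the spread (adjusted p = 0.026). Without NEFA 4 it was 0.10 (adjusted p = 0.47).

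OMD encodes osteomodulin, best known from bone and dentine. Its brighter probe set was in the dimmest 33.3% of probe sets, at 2.44, 2.18, 2.45 and 2.69 with BSA and 2.92, 2.75, 2.73 and 2.98 with NEFA. The groups did not overlap, but the BSA arrays alone spanned 0.51, and the change of 0.41 (SE 0.11) did not pass (limma, adjusted p = 0.11). The second OMD probe set, at a mean of 2.35, changed by 0.05 with overlapping groups (adjusted p = 0.90), so the probe sets of OMD differed in size of change.

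Of the class I members, which carry chondroitin or dermatan sulfate or neither, DCN rose. DCN encodes decorin, which coats collagen fibrils and binds TGF-beta and several growth factor receptors. It read 9.69, 9.77, 9.70 and 9.90 with BSA and 10.25, 10.19, 10.22 and 10.50 with NEFA. The replicate numbered 4 was the highest of each group, and the groups were 0.29 apart at their nearest arrays. The change was 0.53 (SE 0.084; 95% interval 0.33 to 0.72; limma, adjusted p = 0.020), and an exact two-sided permutation test over the 8 arrays gave p = 0.0286, the smallest that 70 splits allow. The limma call ended without BSA 1, BSA 2, BSA 3 or NEFA 1 (adjusted p = 0.058, 0.061, 0.067 and 0.057), with changes from 0.50 to 0.54. Without NEFA 4 the change was 0.46 and it passed (adjusted p = 0.028).

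BGN encodes biglycan, the closest relative of decorin, which also signals through toll-like receptors when set free. It was dim, at 3.39, 3.23, 3.87 and 3.32 with BSA and 3.42, 3.88, 3.57 and 3.55 with NEFA. The highest arrays of the groups, BSA 3 and NEFA 2, were nearly equal, and the change was 0.15 (SE 0.15; 95% interval -0.19 to 0.50; limma, adjusted p = 0.67). ASPN encodes asporin, named for its stretch of aspartates and known as a TGF-beta antagonist in cartilage. It gave 2.85, 2.56, 2.56 and 2.93 with BSA and 2.96, 3.03, 3.23 and 3.22 with NEFA, with BSA 4 just under NEFA 1. Its change of 0.39 (SE 0.11; 95% interval 0.14 to 0.63) did not pass (limma, adjusted p = 0.12), also in the dimmest 33.3% of probe sets.

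OGN, of class III, encodes osteoglycin, also called mimecan, and was dim as well. It read 2.34, 2.91, 2.58 and 2.69 with BSA and 2.75, 2.60, 2.80 and 2.84 with NEFA. The highest and the lowest of its 8 values were both BSA arrays, and the change was 0.12 (SE 0.12; 95% interval -0.15 to 0.38; limma, adjusted p = 0.68).

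The larger proteoglycans outside the leucine-rich family did not rise. VCAN read 11, 10.99, 10.93 and 10.89 with BSA and 10.97, 10.99, 10.96 and 10.98 with NEFA. Its NEFA arrays lay inside the range of the BSA arrays, and the 95% interval of its change, -0.09 to 0.13, left out changes of the size of those of DCN, FMOD or PRELP (change 0.02, SE 0.048; limma, adjusted p = 0.86). HSPG2 was the single member with a lower mean, at 7.30, 7.25, 7.19 and 7.29 with BSA and 7.20, 7.14, 7.06 and 7.15 with NEFA. NEFA 1 reached just above BSA 3, and the change of -0.12 did not pass (SE 0.053; 95% interval -0.24 to 0.002; limma, adjusted p = 0.32).

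**Figure D2:**
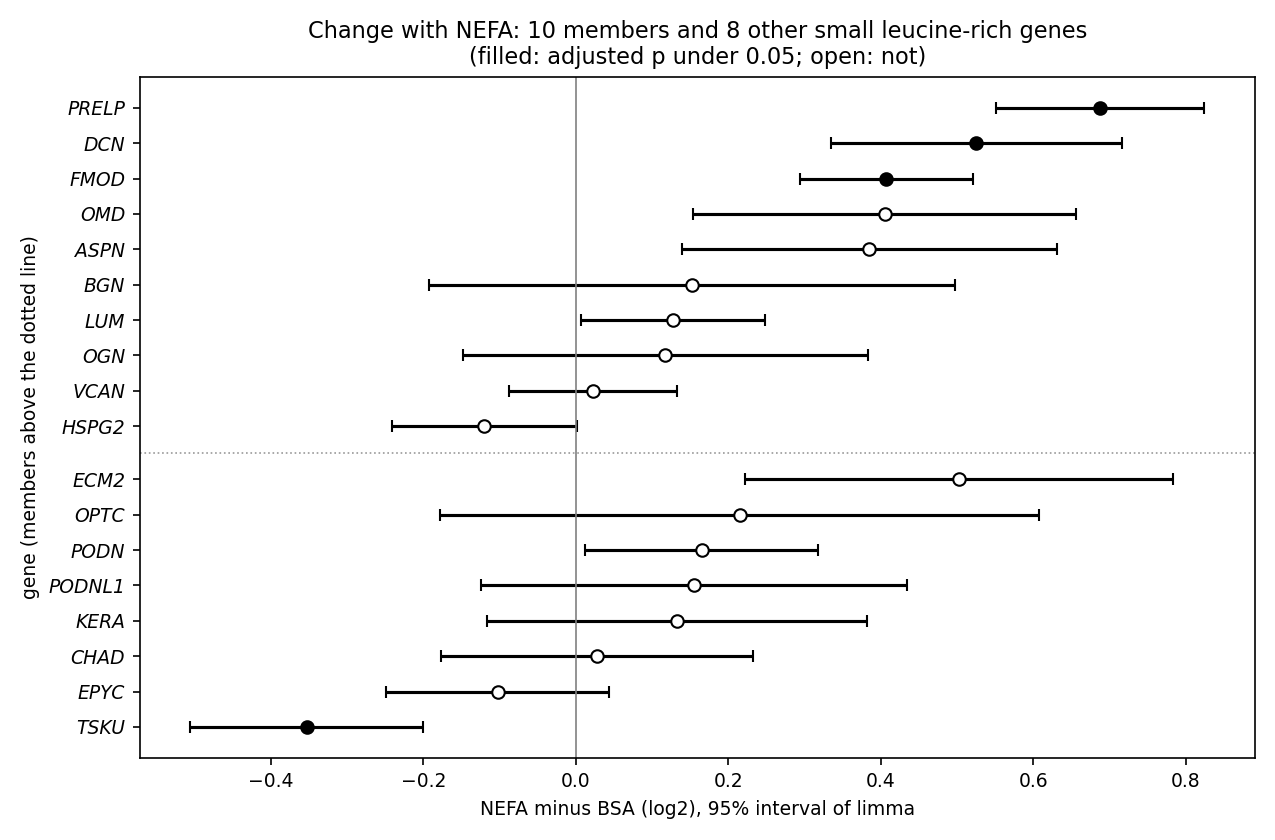
Change with NEFA on the log2 scale with limma's 95% interval for the 10 members and, under the dotted line, 8 other small leucine-rich genes (filled, adjusted p under 0.05). PRELP, DCN and FMOD rose, TSKU fell, and the intervals of the dim transcripts BGN, OGN, ASPN and OMD were wide.

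The change of DCN was then set against that of each other member, as the difference of log2 values on each array, in which a constant difference between probe sets cancels. DCN rose by more than HSPG2 changed, with DCN minus HSPG2 going from 2.51 ± 0.09 with BSA to 3.15 ± 0.14 with NEFA (difference of changes 0.645, 95% interval 0.39 to 0.90). It also exceeded VCAN by 0.50 (0.25 to 0.76), OGN by 0.41 (0.15 to 0.67) and its neighbour LUM by 0.40 (0.15 to 0.64). For these 4 pairs every NEFA array was above every BSA array, and the exact two-sided permutation p was 0.0286, the smallest possible. Fitted with limma and adjusted over the differences of DCN to all 18009 other genes, the adjusted p was 8.27e-05 for HSPG2, 6.91e-04 for VCAN, 0.0043 for OGN and 0.0033 for LUM. All 18009 differences share the DCN values, so limma's moderation of the spread rested on rows that are not independent. These adjusted p-values may therefore be too small, while the exact permutation p does not rest on that moderation. The background of this test was high, since 93.9% of all genes differed from DCN in it, so these 4 genes did as most genes did.

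A difference from DCN was not seen for the members that moved most. The difference of changes to FMOD was 0.12 (95% interval -0.14 to 0.38; limma, adjusted p = 0.36), and to PRELP it was -0.16 (-0.42 to 0.09; adjusted p = 0.21). For the dim ASPN and OMD it was 0.14 (-0.12 to 0.40; adjusted p = 0.29) and 0.12 (-0.14 to 0.38; adjusted p = 0.35). Missing the threshold does not show that these members changed alike, given the width of the intervals. For OMD the mean of its probe sets gave 0.30 and passed (adjusted p = 0.031). BGN passed with limma at 0.37 (0.06 to 0.68; adjusted p = 0.022), but its groups overlapped and the exact permutation p was 0.114. That call ended without BSA 3 (0.21, adjusted p = 0.17), without NEFA 4 (0.28, adjusted p = 0.15), and without moderation of the spread (adjusted p = 0.15). All these differences share the values of DCN, so the 9 comparisons are not independent.

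**Figure D3:**
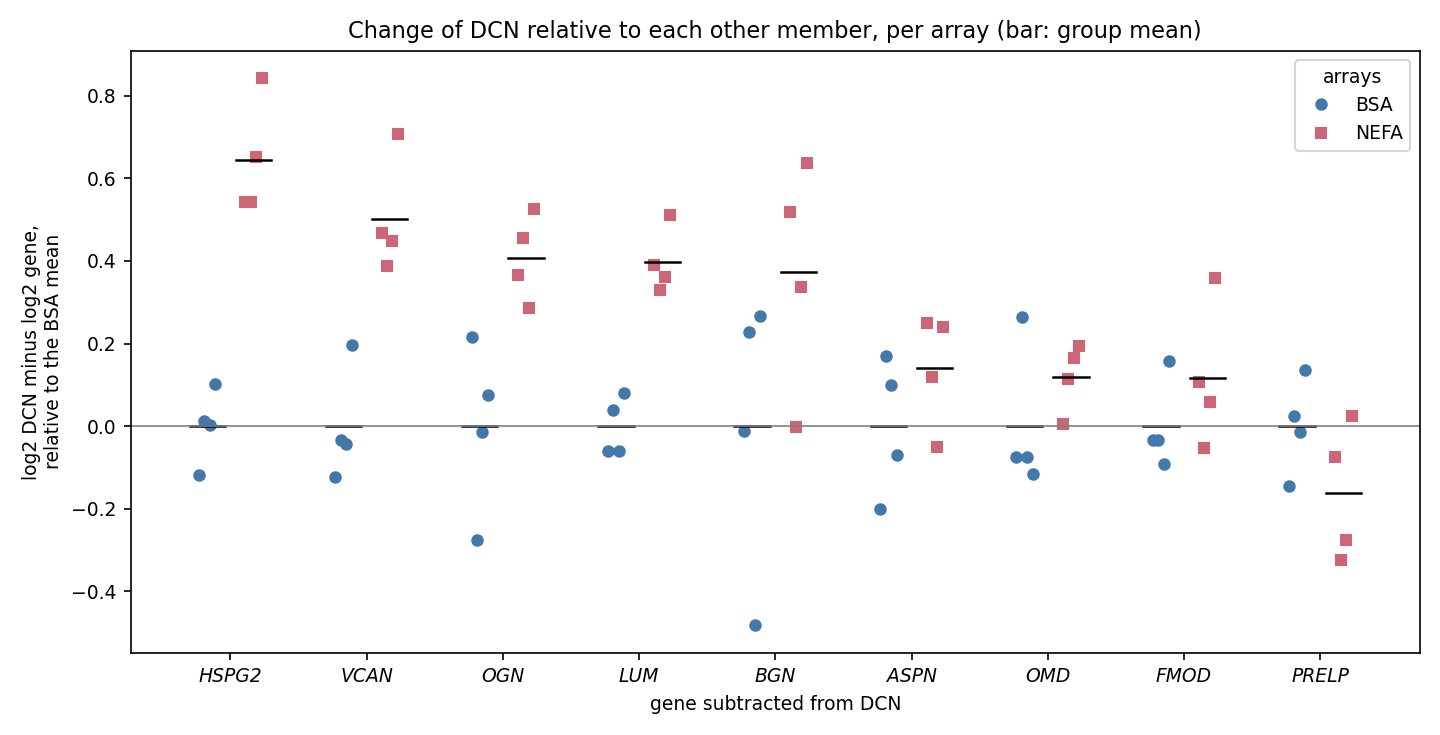
Log2 DCN minus log2 of each other member on each array, relative to the BSA mean of that pair (circles BSA, squares NEFA, bars group means). The NEFA arrays stood above all BSA arrays for HSPG2, VCAN, OGN and LUM and overlapped with them for BGN, ASPN, OMD, FMOD and PRELP.

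Within the groups, the members did not all vary together. DCN and LUM were both highest on replicate 4 of each group, by 0.14 and 0.06 above the BSA mean and by 0.21 and 0.10 above the NEFA mean, and OMD was highest on the same arrays. FMOD and PRELP deviated by at most 0.07 and 0.13 from their group means and were highest on NEFA 2. BGN deviated most on BSA 3, by 0.42, and also by 0.275 on NEFA 2 and by -0.22 on BSA 2.

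The members share places in the genome that the choice of genes did not use. In the RefSeq gene order of assembly ARS-UCD2.0, EPYC, KERA, LUM and DCN follow one another, as do FMOD, PRELP and OPTC, and as do OGN, OMD, ASPN and ECM2. VCAN lies next to HAPLN1, which encodes a link protein that fastens versican-type proteoglycans to hyaluronan. The adjacent FMOD and PRELP both rose, while OPTC (opticin, of the eye's vitreous) was 3.53 ± 0.22 with BSA and 3.75 ± 0.34 with NEFA and did not pass (limma, adjusted p = 0.59). Of the row with DCN, LUM, KERA and EPYC did not pass, with changes of 0.13, 0.13 and -0.10. None of OGN, OMD, ASPN and ECM2 passed. ECM2, a matrix protein with leucine-rich repeats, came nearest, at 5.03, 5.40, 5.31 and 5.23 with BSA and 5.84, 5.58, 6.02 and 5.54 with NEFA (change 0.50, SE 0.12; limma, adjusted p = 0.087). HAPLN1 was dim and changed by 0.05.

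The genes whose profiles over the 8 arrays were nearest to that of DCN were CLDN1, SRPX2, TP53INP1, ANXA3 and HMCN1. Nearness was the root mean square difference between log2 profiles after removal of each gene's mean, among 10119 genes at or above the median level, and it was 0.081, 0.087, 0.092, 0.098 and 0.100. CLDN1 encodes a tight junction claudin, SRPX2 a secreted sushi-repeat protein, TP53INP1 a p53-induced protein, ANXA3 an annexin and HMCN1 a hemicentin of the matrix. For PRELP they were HADHA, COL15A1, PSMB8, SLC25A20 and PDE1B, at 0.073 to 0.086. HADHA and SLC25A20 serve mitochondrial fatty acid oxidation, PSMB8 is an immunoproteasome subunit, PDE1B a phosphodiesterase, and COL15A1 the core of a basement membrane proteoglycan. All 10 of these genes rose with NEFA by 0.40 to 0.81, a size that the measure of nearness favours. CLDN1 lost its call when any 1 array other than BSA 4 was left out (limma, adjusted p of at most 0.12), and the mean of the probe sets of HADHA changed by 0.36 in place of 0.74.

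Genes around the proteoglycans were read from 6 lists, in which 132 of 139 genes were measured, and 10 rose and 6 fell (12.1%, against 2.35% over all genes). Without any 1 of the arrays between 4 and 8 of the 132 passed, the fewest without NEFA 2. Of 8 further small leucine-rich genes, TSKU (tsukushi, a secreted modulator of growth factor signals) fell by 0.35, from 6.60 ± 0.07 to 6.25 ± 0.10 (limma, adjusted p = 0.039), and 7 did not pass; the median change was 0.14. TSKU lost its call without each of the 8 arrays (adjusted p up to 0.11, without NEFA 3) and with a further quantile normalization.

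Of 20 hyaluronan genes, HMMR, a hyaluronan receptor that also serves the mitotic spindle, rose by 0.35 (6.90 ± 0.10 to 7.25 ± 0.04; limma, adjusted p = 0.030). LYVE1, the hyaluronan receptor of lymphatic vessels, fell by 0.47 (6.99 ± 0.05 to 6.52 ± 0.19; limma, adjusted p = 0.046). The other 18, among them the hyaluronan synthases HAS2 and HAS3, did not pass, and the median change was 0.08. HMMR lost its call without each of the 8 arrays (adjusted p up to 0.092, when NEFA 3 was left out) and LYVE1 without any 1 array other than NEFA 3 (up to 0.12, when BSA 2 was left out) and with a further quantile normalization.

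Of 18 basement membrane and cell surface proteoglycans 3 rose and none fell; 15 did not pass, and the median change was 0.03. COL15A1, whose product carries chondroitin sulfate in basement membranes, read 5.72, 5.58, 5.65 and 5.54 with BSA and 6.11, 6.30, 6.16 and 6.20 with NEFA. It rose by 0.57 (SE 0.064; limma, adjusted p = 0.0043), with the groups well apart, whereas HSPG2 of the same compartment had a lower mean. SPOCK2 (testican, a secreted proteoglycan) rose by 0.39 and AGRN (agrin, a heparan sulfate proteoglycan) by 0.32. With each array centred on its median, neither passed, and leaving out 1 array ended the call in 6 and 7 of 8 cases (limma, adjusted p of at most 0.087 when NEFA 3 was left out and 0.089 when BSA 3 was).

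Of 38 genes that build and sulfate the sugar chains, 1 rose and 2 fell; 35 did not pass, and the median change was -0.02. PAPSS2, which makes the sulfate donor for the chains, rose by 0.45, from 9.96 ± 0.03 to 10.40 ± 0.02 (SE 0.045; limma, adjusted p = 0.0030). EXTL3, which starts heparan sulfate chains, fell by 0.48, from 8.75 ± 0.09 to 8.27 ± 0.03 (limma, adjusted p = 0.0068). DSEL, an epimerase-like protein of dermatan sulfate, fell by 0.41 (limma, adjusted p = 0.029), a call that ended without 7 of the arrays (adjusted p up to 0.088, without NEFA 2).

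Of 20 proteases and their inhibitors, 3 rose and 1 fell; 16 did not pass, and the median change was 0.08. ADAMTS9, which cuts versican, read 4.45 ± 0.07 with BSA and 5.29 ± 0.15 with NEFA and rose by 0.84 (SE 0.083; limma, adjusted p = 0.0026). ADAMTS20, which cuts versican in the mouse, rose by 0.65 (adjusted p = 0.014; 0.052 without NEFA 2), and MMP2, a gelatinase, rose by 0.52 (adjusted p = 0.027). ADAMTS5, which cuts aggrecan and versican, fell by 0.66, from 5.32 ± 0.09 to 4.66 ± 0.28 (limma, adjusted p = 0.044). The versican-cutting proteases that passed thus went both ways, beside the change of 0.02 in VCAN. Leaving out 1 array ended the call of ADAMTS5 in 7 and that of MMP2 in 6 of 8 cases, with the highest adjusted p, 0.12 and 0.082, when BSA 3 was left out.

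Of 28 partners that bind or respond to small leucine-rich proteoglycans, 2 rose and 1 fell; 25 did not pass, and the median change was 0.03. TGFB2, a ligand of the family that decorin binds, rose by 0.54, from 4.94 ± 0.19 to 5.47 ± 0.06 (limma, adjusted p = 0.028). Fibronectin FN1 rose by 0.31 and the fibrillar collagen COL3A1 fell by 0.27. Leaving out 1 array ended the call of TGFB2 in 6 of 8 cases (highest adjusted p 0.085, when NEFA 3 was left out) and those of FN1 and COL3A1 without each of the 8 (up to 0.13 without NEFA 2 and 0.11 without BSA 3). FN1 also lost it with array centring (adjusted p = 0.079) and with array weights (0.051). TGFB1, TGFB3, COL1A1, COL1A2 and EGFR did not pass.

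**Figure D4:**
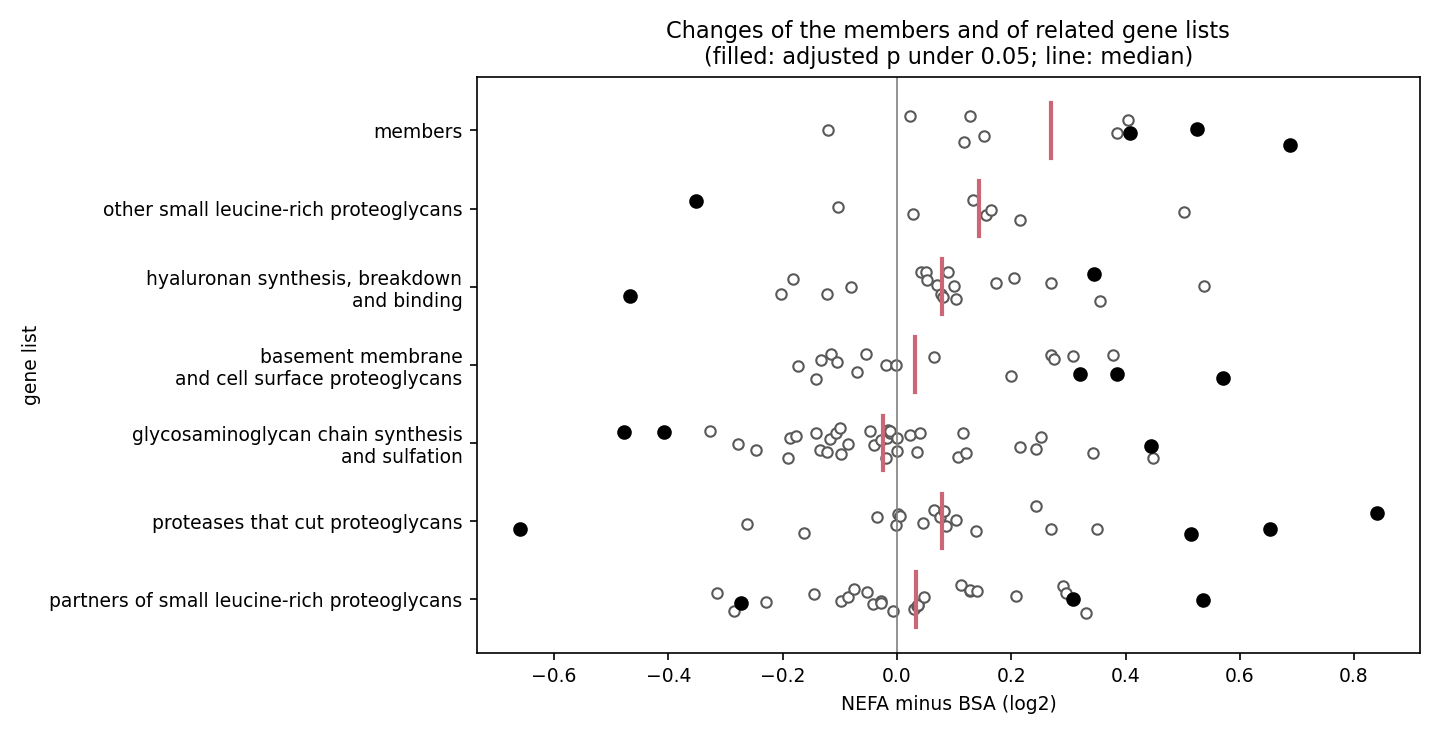
Change with NEFA on the log2 scale for the members and for the genes of 6 related lists (points, genes; filled, adjusted p under 0.05; lines, list medians). The members had a median of 0.27, and the medians of the lists lay between -0.02 and 0.14.

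DCN, LUM, ASPN and OGN are also used as markers of stromal cells, so markers of other cells were read beside them. Of 14 granulosa markers, 14 were measured, none was in the dimmest 33.3% of probe sets, and none passed with NEFA (limma; 3 of 14 at an unadjusted p under 0.05, as were 16.8% of all genes). The granulosa marker of smallest p was the steroid dehydrogenase HSD17B1, at 5.21 ± 0.45 with BSA and 4.46 ± 0.17 with NEFA (adjusted p = 0.12). It passed as lower with trend and robust moderation (adjusted p = 0.046) and without BSA 4 (change -0.95, adjusted p = 0.030). CYP19A1 and AMHR2, also at an unadjusted p under 0.05, went the other way, by 0.505 and 0.15 (limma, adjusted p = 0.17 and 0.26). The mean was higher with NEFA for 8 of the 14 granulosa markers and lower for 6. Of 15 measured theca and stroma markers, none rose, PDGFRA fell by 0.30 (limma, adjusted p = 0.042), COL3A1 fell as given above, and 13 did not pass. The mean was higher with NEFA for 10 of the 15 and lower for 5. At an unadjusted p under 0.05 were 10 of 15, against 16.8% of all genes. Of these 10, PDGFRA, PDGFRB and COL3A1 were lower and the others higher. Among those that did not pass, the changes of the theca and Hedgehog genes CYP17A1, INSL3, GLI1 and PTCH1 were 0.33, 0.22, 0.37 and 0.22. Those of the smooth muscle genes MYH11, TAGLN and DES were 0.42, 0.37 and 0.34. Of the 15, groups did not overlap for 3 higher (GLI1, PTCH1 and MYH11) and 2 lower (PDGFRA and COL3A1), against 12.4% of all genes. PDGFRB, TCF21 and COL1A2 were lower, with changes of -0.18, -0.115 and -0.05. NR2F2, COL1A1 and THY1 changed by 0.055, 0.035 and 0.058. CYP17A1 was in the dimmest 33.3% of probe sets. Summed on the linear scale, the stroma list ran from 4127 to 4562 on the BSA arrays and from 3902 to 4086 on the NEFA arrays. COL3A1 alone held most of that fall, with 1489 to 1663 and 1252 to 1323, and without it, a sum added after seeing the data, the groups overlapped (2607 to 2898 with BSA and 2597 to 2813 with NEFA). The list's mean log2 value went the other way, from 6.58 to 6.70 on BSA arrays and from 6.67 to 6.85 on NEFA arrays, and PDGFRA lost its call without each of the 8 arrays (adjusted p up to 0.11, without BSA 3).

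Endothelial and leukocyte markers were mostly dim. Of 8 endothelial markers, 5 were in the dimmest 33.3%, VWF fell by 0.35 (limma, adjusted p = 0.039; up to 0.11 without BSA 3, lost without 7 of the arrays), and 7 did not pass. Their linear sum was 116 to 123 with BSA and 110 to 121 with NEFA. Of 10 leukocyte markers, 5 were in the dimmest 33.3% and none passed (limma; 1 at an unadjusted p under 0.05, CSF1R with a change of 0.13, adjusted p = 0.29). Their linear sum was 130 to 140 with BSA and 129 to 152 with NEFA. The part of these cells in the changes of the proteoglycans was not tested.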

How the data were processed

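Total RNA of 8 samples was labelled with biotin and read on expression arrays. The deposited values are log2 expression values made by the authors with RMA, per the submitters' processing notes, and no software version or genome build is given in the sources used here. RMA makes array distributions alike, so a change shared by all transcripts cannot be seen, and it compresses changes of dim probe sets. Arrays give no read depth, and their number limits the precision. Of 24415 probe sets, 18457 had 1 gene symbol in the platform annotation, 688 had several and 5270 had none. Symbols were updated by gene ID through RefSeq (ARS-UCD2.0), which matched 17996. No coordinates or sequences are given.

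NEFA minus BSA was fitted in R 4.3.3 with limma 3.58.1 (lmFit, eBayes) over all probe sets without further normalization, and p-values were adjusted by Benjamini-Hochberg. The differences of DCN to all other genes were fitted the same way, and exact permutation tests were run over the 70 splits of the arrays. The functions were tested on simulated data. The replicate numbers 1 to 4 recur in both groups, and the labels do not say whether they mark pairs. Deviations from the group means of same-numbered arrays correlated at only -0.01 to 0.07, so the numbers were not treated as pairs. Weak correlations do not exclude pairing.

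The rule named the 10 members, of each list up to 4 genes past the threshold with the largest changes (or the gene of smallest p), and the 5 profiles nearest to DCN and to PRELP, 39 genes in all. Other genes were named after their values were seen. The members and lists were chosen with earlier results of these data known. As alternatives, the replicate number was a block, values were quantile normalized again or centred per array, the dimmest 33.3% of probe sets (mean level up to 3.56) or each array was left out, eBayes ran with trend and robust settings or with array weights, and probe sets were averaged per gene. A fit of the DCN differences without moderation and a stroma sum without COL3A1 were added after seeing the data.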

Additional observations from a re-analysis of the deposited data

Results flagged for a closer look

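In 78 groups of 4 arrays (39 named genes in both groups), 2 held an array far from the other 3, where chance gives about 1 in 20 groups. LUM was 12.34 on NEFA 4 and 12.21 on the other NEFA arrays. PDE1B, one of the genes nearest to PRELP, was 6.85 on BSA 2 and at least 6.92 on the other BSA arrays.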

How the results depend on the processing

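PRELP and FMOD kept direction and call in all 14 alternatives other than the replicate block, with changes from 0.65 to 0.73 and from 0.37 to 0.43. DCN ran from 0.46 to 0.57 over the left-out arrays and lost its call in 4 of those 8. No other member passed in these alternatives except LUM with trend and robust moderation, and between 2 and 4 members passed. Of 18010 genes, 423 passed (42.6% of them higher), and 429 with array centring (29.6% higher), 790 without the dimmest 33.3% of probe sets, 1097 with trend and robust moderation and 164 to 260 with 1 array left out. The 16 list calls became 4 to 8 with 1 array left out. Of the differences from DCN, 5 of 9 passed, and 3 without the dimmest 33.3%, a filter that removes BGN, ASPN, OMD and OGN. With the replicate number as a block, which uses up degrees of freedom, 77 genes and 1 list gene (ADAMTS9) passed. DCN (adjusted p = 0.049) and PRELP (0.043) then passed and FMOD did not (0.062). Whether the replicate numbers mark pairs is not known. The correlations in the check above were weak, but 5 of 8 arrays correlated best with their own number in the other group. The cause of these shifts was not tested. No read depth limits these arrays, but BGN, ASPN, OMD and OGN lay in the dimmest 33.3%, where small changes cannot be resolved.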

Other observations

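Some genes around the proteoglycans had groups that did not overlap and yet did not pass limma's threshold. They were chosen after their values were seen. CD44, the main cell surface receptor for hyaluronan, read 5.10, 5.16, 5.16 and 4.80 with BSA and 5.32, 5.41, 5.65 and 5.99 with NEFA (change 0.54, SE 0.15; limma, adjusted p = 0.12). Its highest and lowest arrays were those of replicate 4. B3GNT7, which extends keratan sulfate chains such as those on lumican and fibromodulin, was 3.61 ± 0.21 with BSA and 4.06 ± 0.14 with NEFA (adjusted p = 0.093). CHST11, which adds sulfate to chondroitin, was 10.27 ± 0.12 with BSA and 9.94 ± 0.09 with NEFA (adjusted p = 0.075). The smooth muscle myosin MYH11 was 4.89 ± 0.18 with BSA and 5.31 ± 0.05 with NEFA (adjusted p = 0.056). Over all genes, 12.4% had groups that did not overlap.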
